A study of Homo sapiens with 16 samples.

Results

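Caveolae are flask-shaped pits of the plasma membrane built by 2 families of proteins. Caveolins are hairpin proteins inserted into the inner leaflet, of which caveolin-1 is needed to form a pit outside muscle and caveolin-2 accompanies it, while cavins form a peripheral coat around the bulb, with cavin-1 as the obligatory subunit. EHD2 is a dynamin-related ATPase that assembles at the caveolar neck and holds the pit at the cell surface. Caveolae are abundant in endothelial cells, adipocytes, fibroblasts and muscle, and hepatocytes are known for few of them.

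The 6 genes described here are CAV1, CAV2, CAVIN1 (formerly PTRF), CAVIN2 (formerly SDPR), CAVIN3 (formerly PRKCDBP) and EHD2, out of 26258 genes in the expression table. They were chosen by name with earlier results of the same libraries known, so their differences between resistant and parental cells are given as a description, without p-values. All 6 reached 1 CPM (read counts scaled to the same library total) in 2 or more libraries, the filter that left 15019 genes for the fits. CAVIN3 passed it through 3 libraries of resistant Huh7 cells and no other.

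The study compared Huh7 and Hep3B, established human hepatocellular carcinoma cell lines, with derivatives raised to resist Sorafenib, an oral inhibitor of RAF and receptor tyrosine kinases. IR cells were selected in increasing concentrations and CR cells in a constantly high concentration, and both are labelled as treated with 7 μM Sorafenib. Parental and DMSO cells of each line are labelled untreated, and the history of the DMSO cells is not described in the sources used here. RNA-seq of 16 libraries gave 8 groups with 2 replicates each and 46613302 to 76860251 counted reads per library. The resistant cells differ from parental cells both in selection and in the listed drug, and these cannot be told apart. The study's methods describe RNA extraction in biological triplicates, and 2 libraries per group are analysed here. Whether these came from separate cultures is not in the labels, so that p-values measure the spread between these libraries. Since the RNA is from bulk cultures, fewer cells expressing a gene and less of its RNA per cell cannot be told apart either.

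Parental cells expressed hepatocyte genes at high levels, as labelled. The 9 hepatocyte markers summed to 10158 to 15172 CPM in parental Huh7 and 17115 to 21077 CPM in parental Hep3B libraries, against 106 to 454 CPM in the IR and 1365 to 2779 CPM in the CR libraries of Huh7, and 3549 to 9889 CPM and 1306 to 2184 CPM in those of Hep3B. The DMSO libraries summed to 21418 to 24951 CPM in Huh7 and 30013 to 34565 CPM in Hep3B. The 2 replicates of Huh7 DMSO and of Huh7-IR differed more across genes (SD of the log2 difference 0.57 in each) than those of the other groups (0.24 to 0.31). The difference between the replicates followed the GC content of the genes most closely in Huh7 parental (Spearman 0.53, replicate 1 minus replicate 2) and Huh7 DMSO cells (Spearman −0.51), across 14597 genes, which are not independent replicates.

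CAV1 and CAV2 are neighbours on chromosome 7, where the annotated end of CAV2 lies 16453 bases before the start of CAV1 (GRCh37 positions, GENCODE). CAV1 (Entrez ID 857) occupies bases 116165048 to 116201233 and CAV2 (858) bases 115927434 to 116148595, both on the plus strand. CAVIN1 (284119) lies on chromosome 17 at 40554467 to 40575274, CAVIN2 (8436) on chromosome 2 at 192699036 to 192711814 and CAVIN3 (112464) on chromosome 11 at 6340176 to 6341762, all on the minus strand. EHD2 (30846) lies on the plus strand of chromosome 19 at 48216679 to 48246391. An antisense gene, CAVIN2-AS1, shares 238 exon bases with CAVIN2, and an antisense long non-coding RNA shares 438 bases with the reference transcript of CAVIN3. The strand setting of the counting is not given in the sources used here, so reads of these partners and of the member cannot be told apart.

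RefSeq promoter sequences matched 4 of the 6 members: CAV1, CAV2, CAVIN2 and EHD2; CAVIN1 and CAVIN3 have no entry in the table used. The 250 bases before each start are shown, since these 4 genes include a pair that was higher together, CAV1 and CAV2, and the member that went the other way, CAVIN2. They are RefSeq sequence on GRCh38.p14, each read along the gene: CAV1 at chr7:116524759-116525008 (plus strand), CAV2 at chr7:116499488-116499737 (plus strand), CAVIN2 at chr2:191847089-191847338 (minus strand) and EHD2 at chr19:47713172-47713421 (plus strand). The CAV2 stretch precedes the start of its RefSeq gene, not that of the GENCODE gene given above, which begins farther upstream. Capitals mark, on either strand, GGGCGG (a GC box), ACGTG (the core of the hypoxia-inducible factor site), GGAATG (a TEAD site) or TGANTCA (an AP-1 site).
CAV1: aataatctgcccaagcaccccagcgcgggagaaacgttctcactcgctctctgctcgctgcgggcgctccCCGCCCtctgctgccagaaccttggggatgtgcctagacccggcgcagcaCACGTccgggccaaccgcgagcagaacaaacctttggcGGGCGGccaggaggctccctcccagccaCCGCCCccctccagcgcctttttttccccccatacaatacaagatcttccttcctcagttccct
CAV2: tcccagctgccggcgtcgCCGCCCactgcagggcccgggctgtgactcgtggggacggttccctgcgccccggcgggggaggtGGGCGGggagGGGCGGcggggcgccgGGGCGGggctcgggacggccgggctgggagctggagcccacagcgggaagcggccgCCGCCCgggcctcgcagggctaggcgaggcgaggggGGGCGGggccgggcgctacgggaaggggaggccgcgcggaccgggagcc
CAVIN2: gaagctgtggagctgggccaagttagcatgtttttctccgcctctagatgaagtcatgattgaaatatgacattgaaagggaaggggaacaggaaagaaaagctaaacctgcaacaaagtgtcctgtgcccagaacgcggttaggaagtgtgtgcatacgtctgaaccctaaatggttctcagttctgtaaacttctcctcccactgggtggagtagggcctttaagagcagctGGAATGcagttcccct
EHD2: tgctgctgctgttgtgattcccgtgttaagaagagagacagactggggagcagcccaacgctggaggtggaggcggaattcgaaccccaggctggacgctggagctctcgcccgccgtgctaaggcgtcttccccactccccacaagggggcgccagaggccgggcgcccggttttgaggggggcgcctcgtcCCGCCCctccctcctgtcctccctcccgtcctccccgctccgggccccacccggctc
The 4 stretches differ in base composition, from 48.0% GC in CAVIN2 to 63.6% in CAV1, 69.6% in EHD2 and 83.2% in CAV2. The GC box occurred 6 times before CAV2, 3 times before CAV1 and once before EHD2, and it is found in 42.3% of the 27305 promoters of this length in the table. CAV1 held 1 ACGTG, whose first base lies 130 bases before the start (18.7% of promoters), and CAVIN2 held 1 GGAATG at 16 bases before the start (11.9% of promoters). TGANTCA (6.60% of promoters) was in none of these 4 windows. The motifs were chosen after the expression values were known, and a match describes letters, not binding.

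**Figure D1:**
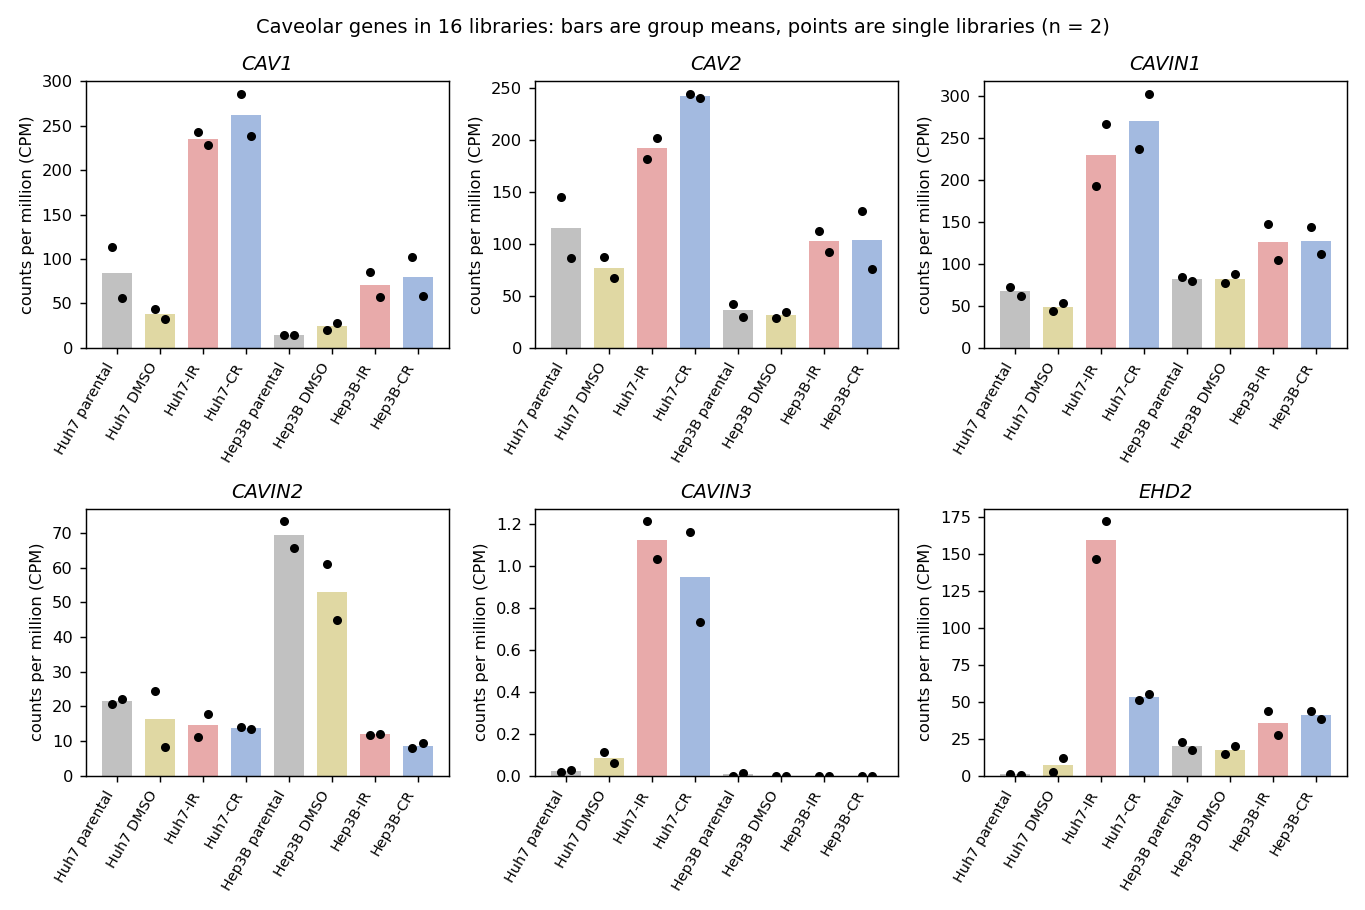
CPM of each member in each library by group, with bars for group means and points for the 2 libraries (linear axes that start at 0 and differ between panels). The Huh7-IR and Huh7-CR libraries lie above all other libraries for CAV1, CAV2, CAVIN1, CAVIN3 and EHD2, while CAVIN2 is highest in Hep3B parental and DMSO libraries.

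The caveolins were higher in resistant cells of both lines. CAV1 stood at 113 and 56.0 CPM in the parental Huh7 libraries and at 43.9 and 32.6 CPM in the Huh7 DMSO libraries, against 243 and 228 CPM in Huh7-IR and 286 and 239 CPM in Huh7-CR. In Hep3B it stood at 14.4 and 14.8 CPM in parental and 20.6 and 27.4 CPM in DMSO cells, against 85.0 and 56.8 CPM in Hep3B-IR and 102 and 57.9 CPM in Hep3B-CR. In neither line did a resistant library overlap a parental or DMSO library. The share of all genes tested that are separated in this way was not counted, here or for the members below. On the log2(CPM + 1) scale, on which all differences are given, CAV1 exceeded its parental level by 1.55 in IR and 1.70 in CR cells of Huh7, and by 2.18 and 2.32 in those of Hep3B (SE 0.33 each).

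CAV2, the partner that relies on caveolin-1 to reach the surface, was higher in the same direction by smaller amounts. Parental and DMSO Huh7 libraries ranged from 67.1 to 145 CPM (median 86.7, n = 4) and resistant Huh7 libraries from 182 to 245 CPM (median 221, n = 4). In Hep3B the ranges were 28.8 to 42.5 CPM (median 31.8) and 76.0 to 132 CPM (median 103). Neither pair of ranges overlapped. The differences from parental cells were 0.77 (IR) and 1.11 (CR) for Huh7, and 1.51 (IR) and 1.48 (CR) for Hep3B (SE 0.28 each). The parental Huh7 replicates, at 145 and 86.3 CPM, lay farther apart than those of the resistant Huh7 groups. Without parental replicate 2, CAV2 was 0.40 higher in Huh7-IR and 0.73 in Huh7-CR, and both lost the call. The Huh7-IR call was also lost without either Huh7-IR replicate (0.84 without replicate 1, 0.70 without replicate 2) and with edgeR (0.55).

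CAVIN1, the cavin without which the coat does not form, was higher in all 4 resistant groups, with larger differences in Huh7. Its Huh7 levels were 72.9 and 62.3 CPM in parental and 43.9 and 52.9 CPM in DMSO cells, against 193 and 267 CPM in Huh7-IR and 238 and 303 CPM in Huh7-CR. Its Hep3B levels were 84.9 and 79.1 CPM in parental and 77.0 and 87.8 CPM in DMSO cells, against 148 and 104 CPM in Hep3B-IR and 144 and 111 CPM in Hep3B-CR. All resistant libraries exceeded the parental and DMSO libraries of their line. In Huh7 DMSO replicate 1, CAV1 and CAVIN1 each held 3180 reads. The differences from parental cells were 1.74 (IR) and 1.98 (CR) for Huh7, but 0.59 (IR) and 0.62 (CR) for Hep3B (SE 0.21 each), the latter close to the threshold of 0.58. Both Hep3B calls were lost with edgeR (0.56 and 0.52) and when a parental replicate was left out (0.64 and 0.67 without replicate 1, 0.54 and 0.57 without replicate 2). Without replicate 1 of the resistant group they came to 0.35 (IR) and 0.44 (CR), and after GC correction to 0.54 (IR) and 0.34 (CR), with neither called.

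CAVIN2, a cavin that binds phosphatidylserine and shapes the membrane, went the other way in Hep3B. It was at 73.3 and 65.6 CPM in parental and 61.1 and 45.0 CPM in DMSO cells, against 11.7 and 12.0 CPM in Hep3B-IR and 7.88 and 9.23 CPM in Hep3B-CR. The highest resistant library was thus below the lowest of the others, and the differences from parental cells were −2.45 and −2.88 (SE 0.36). In Huh7 the libraries overlapped, with 20.5 and 22.2 CPM in parental, 24.4 and 8.26 CPM in DMSO, 11.2 and 17.9 CPM in IR and 14.1 and 13.5 CPM in CR cells. The Huh7 differences of −0.56 in IR and −0.59 in CR cells were not called, and their 95% intervals ran from −1.34 to 0.23 and from −1.38 to 0.19.

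CAVIN3, a cavin that binds protein kinase C delta, was near the detection limit. Huh7 libraries held 1 and 2 reads in parental, 8 and 4 in DMSO, 73 and 48 in IR and 75 and 56 in CR cells. All 4 resistant Huh7 libraries exceeded the other Huh7 libraries, at 0.733 to 1.21 CPM against 0.0146 to 0.110 CPM. Over the summed reads and library sizes, the Huh7-IR to parental ratio was 54.1 (exact 95% interval 18.1 to 266) and the Huh7-CR to parental ratio 44.4 (14.9 to 218), intervals that cover counting error only. On the log2(CPM + 1) scale, which compresses such low levels, the differences were 1.05 and 0.92 (SE 0.13). CAVIN3 is GC-rich (66.7% in its reference transcript), and after a correction for GC content the Huh7-IR difference was 0.27 and no longer called, while that of Huh7-CR kept its call. With a pseudocount of 4 CPM both calls were lost (0.35 and 0.30). In Hep3B, 1 read was found in 1 of 8 libraries, and a count of 0 allows up to 0.0390 to 0.0571 CPM depending on the library, so no difference was detectable there.

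EHD2 was low in parental Huh7 cells and high in resistant ones. Parental Huh7 libraries held 1.34 and 0.429 CPM and DMSO libraries 2.63 and 11.8 CPM, against 147 and 172 CPM in Huh7-IR and 50.9 and 55.2 CPM in Huh7-CR. The differences from parental cells were 6.45 in Huh7-IR and 4.89 in Huh7-CR (SE 0.45 each). In Hep3B, EHD2 was already at 23.0 and 17.1 CPM in parental and 14.8 and 20.1 CPM in DMSO cells, against 43.99 and 27.6 CPM in Hep3B-IR and 43.9 and 38.3 CPM in Hep3B-CR. The resistant libraries did not overlap the others in either line, but the Hep3B differences of 0.79 (95% interval −0.20 to 1.77) and 1.01 (0.02 to 2.00) were not called. Both were called in a fit of the Hep3B libraries alone, and that of Hep3B-CR also with a pseudocount of 4 CPM (0.92).

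**Figure D2:**
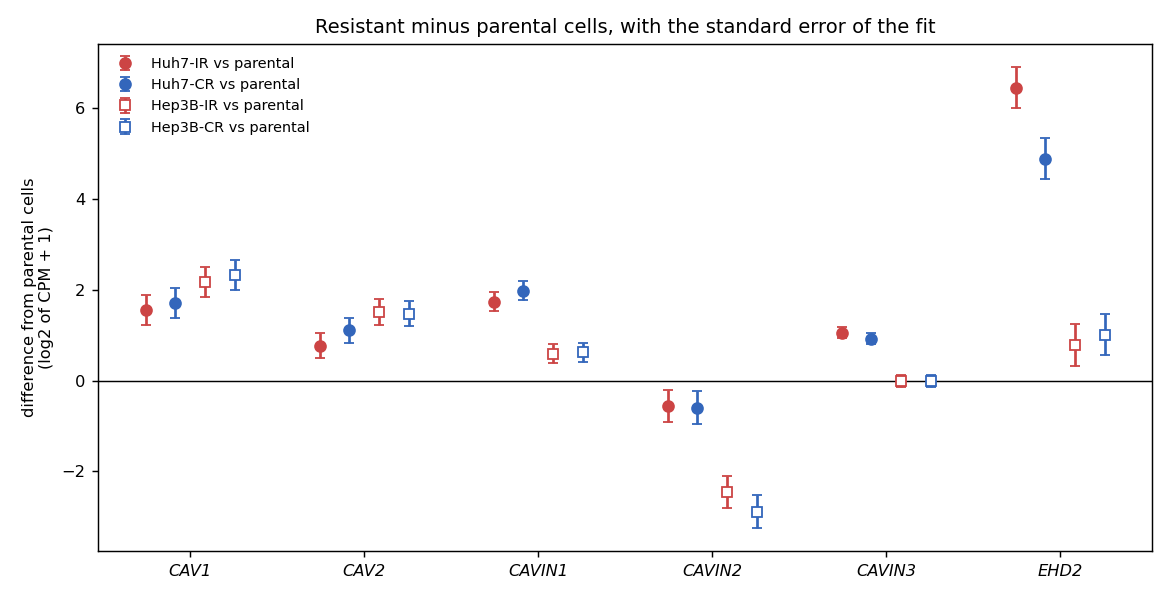
Difference of each member between resistant and parental cells on the log2(CPM + 1) scale, with the standard error of the limma fit; filled circles are Huh7, open squares Hep3B, red IR and blue CR. CAV1 and CAV2 lie above 0 in all 4 comparisons, CAVIN2 lies below 0, and EHD2 in Huh7-IR reaches 6.45.

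A gene was called when its Benjamini-Hochberg adjusted p in limma was under 0.05 and its log2 difference at least 0.58 in size. By that rule 5 of 6 members were higher in Huh7-IR and 5 of 6 in Huh7-CR than in parental cells, against 31.1% and 20.9% of all genes tested, and none was lower, against 17.8% and 13.6%. Both counts hold CAV1, CAV2, CAVIN1, EHD2 and CAVIN3, of which CAVIN3 passed the filter only through 3 resistant Huh7 libraries. In each resistant group of Hep3B, 3 members (CAV1, CAV2 and CAVIN1) were higher, against 15.7% and 20.0% of all genes, and CAVIN2 was lower, against 11.4% and 12.3%. With edgeR, 4 and 5 members were higher in Huh7-IR and Huh7-CR, CAVIN3 included, and 0 lower. In each Hep3B comparison edgeR called 2 higher and 1 lower, as CAVIN1 was lost. Nothing is read from them, because the members were chosen with these values known. No called value of a member against parental cells changed sign in any of its 16 alternatives. The IR and CR comparisons of a line share their parental libraries. The share of called genes that were higher depended on scaling: it was 63.6%, 60.6%, 57.9% and 61.9% in the 4 comparisons with CPM and 49.8%, 49.3%, 47.7% and 49.2% after quantile normalization. The median difference over all genes in Huh7-IR was 0.19 with CPM.

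Against DMSO cells, the same libraries gave CAV1 higher by 2.61 (IR) and 2.76 (CR) for Huh7 and by 1.51 (IR) and 1.65 (CR) for Hep3B. EHD2 was 4.55 higher in Huh7-IR and 2.99 in Huh7-CR than in Huh7 DMSO cells, both smaller than against parental cells. CAVIN2 differed by −2.06 (IR) and −2.49 (CR) for Hep3B and by −0.01 (IR) and −0.05 (CR) for Huh7 (SE 0.36 each).

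The composition of the set also shifted within libraries. Levels divided by the length of the reference transcript (CPM per kilobase) are compared here, as ratios between members in the same library. CAVIN2 per CAVIN1 was 1.01 and 0.970 in parental Hep3B libraries, against 0.0926 and 0.134 (IR) and 0.0640 and 0.0970 (CR) in the resistant libraries. In Huh7 it was 0.329 and 0.416 in parental cells, and 0.0679 and 0.0781 in IR and 0.0693 and 0.0522 in CR cells. The 8 resistant libraries thus lay below all parental and DMSO libraries, whose lowest value was 0.183 in Huh7 DMSO replicate 2. EHD2 per CAVIN1 was 0.0187 and 0.00700 in parental Huh7, 0.0612 and 0.227 in Huh7 DMSO, 0.775 and 0.656 in Huh7-IR, and 0.218 and 0.186 in Huh7-CR, while in Hep3B it stayed between 0.196 and 0.350 in all groups. The second Huh7 DMSO library thus lay above both Huh7-CR libraries in this ratio. CAV1 per CAV2 was 0.938 and 0.780 in parental Huh7, 0.606 and 0.585 in Huh7 DMSO, 1.60 and 1.36 in Huh7-IR and 1.41 and 1.20 in Huh7-CR libraries, and 0.406 to 0.962 over the Hep3B libraries.

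**Figure D3:**
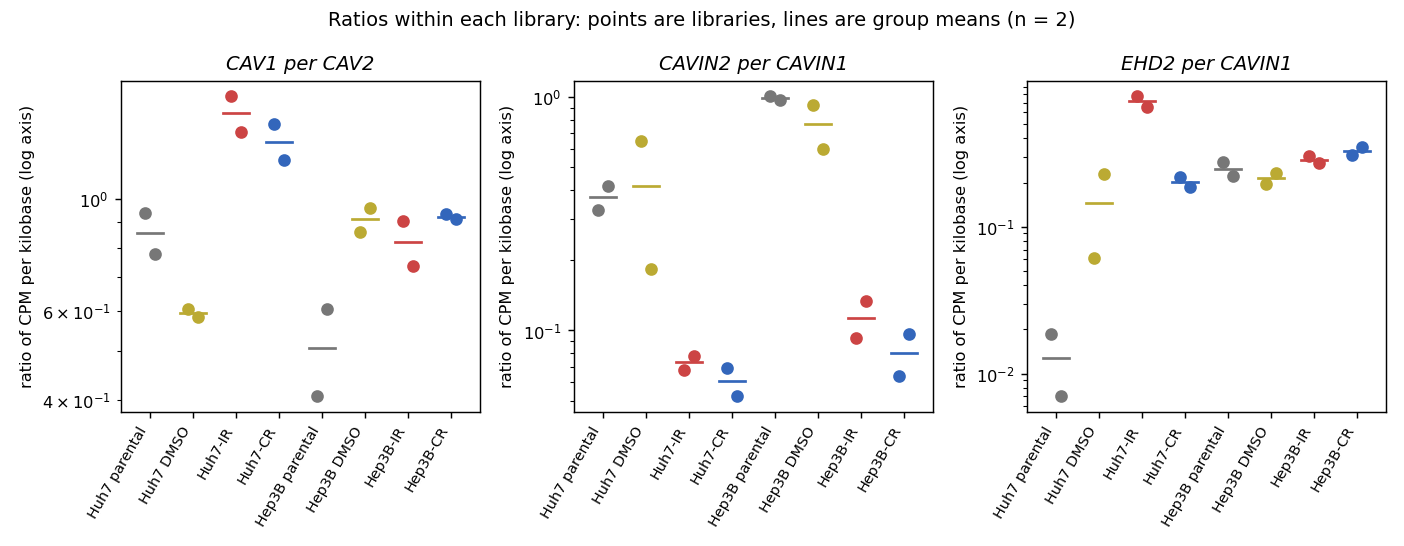
Ratios of CPM per kilobase between members within each library, on log axes, with points for the 2 libraries of a group and lines for their mean. CAVIN2 per CAVIN1 is below 0.14 in the 8 resistant libraries, and EHD2 per CAVIN1 is highest in the Huh7-IR libraries (0.656 and 0.775).

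The IR and CR regimens were compared directly. The genes were chosen with earlier results of these libraries known, so the p-values of this and the following comparisons are not independent of that choice. In Huh7, EHD2 was 1.57 higher in IR than in CR cells (SE 0.45, limma adjusted p = 0.0374), the only one of 6 members called, against 13.7% of all genes. Both Huh7-IR libraries lay above both Huh7-CR libraries. This call did not survive edgeR (adjusted p = 0.0817), the libraries of the line alone (limma adjusted p = 0.167) or the removal of any of the 4 libraries, with the difference at 1.68 and 1.45 when IR replicate 1 or 2 was left out, and at 1.51 and 1.63 when CR replicate 1 or 2 was. CAV1 differed by −0.15 (95% interval −0.86 to 0.57), CAV2 by −0.34 (−0.95 to 0.28), CAVIN1 by −0.24 (−0.70 to 0.22), CAVIN2 by 0.04 (−0.75 to 0.82) and CAVIN3 by 0.13 (−0.14 to 0.40). In Hep3B no member was called by limma, edgeR or DESeq2, and 0 had an unadjusted limma p under 0.05, against 11.7% of all genes called. The Hep3B 95% intervals ran from −0.86 to 0.57 for CAV1, −0.59 to 0.64 for CAV2, −0.49 to 0.43 for CAVIN1, −0.35 to 1.22 for CAVIN2 and −1.22 to 0.76 for EHD2.

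DMSO and parental cells, both untreated by the labels, were compared as well. In Huh7, 3 members (EHD2, CAV1 and CAVIN1) had an unadjusted limma p under 0.05. In Huh7, EHD2 was 1.90 higher in DMSO than in parental cells (SE 0.45, limma adjusted p = 0.0362), the 1 member called, against 4.83% of all genes. DMSO replicate 2 held 11.8 CPM against 2.63 CPM in replicate 1, and the value was 0.99 and not called without it. GC-rich genes were higher in that library than in replicate 1, and EHD2 has 61.2% GC; after GC correction its difference was 1.61 and still called. The call was also lost without Huh7 parental replicate 1 (2.26) and without Huh7 parental replicate 2 (1.54). CAV1 was 1.05 lower (95% interval −1.77 to −0.34, limma adjusted p = 0.0813), with both DMSO libraries below both parental libraries; it passed the threshold with DESeq2 (−1.18, adjusted p = 0.00632), without Huh7 DMSO replicate 1 (−1.26) and without Huh7 parental replicate 2 (−1.56). CAVIN1 differed by −0.48 (95% interval −0.94 to −0.02), not called, and was called at −0.70 after GC correction. CAV2 differed by −0.55 (−1.16 to 0.07) and was not called. CAVIN2, not called at −0.54, was called at −1.27 without Huh7 DMSO replicate 1 and came to 0.18 without Huh7 DMSO replicate 2. In Hep3B no member was called by limma, edgeR or DESeq2, and 0 had an unadjusted limma p under 0.05, against 1.58% of all genes called. The largest Hep3B value was 0.67 for CAV1 (95% interval −0.04 to 1.38).

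The parental lines started from different levels. Parental Huh7 exceeded parental Hep3B in CAV1 by 2.37 (limma adjusted p = 7.89e-05) and in CAV2 by 1.64 (limma adjusted p = 0.000432), and was lower in CAVIN2 by −1.65 (limma adjusted p = 0.00220) and in EHD2 by −3.51 (limma adjusted p = 4.59e-05). These 4 of 6 members were called, against 42.6% of all genes. CAVIN1 differed by −0.28 (95% interval −0.74 to 0.18), and CAVIN3 could not be compared at 1 and 2 reads in the Huh7 and 0 and 1 in the Hep3B libraries.

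The change on resistance, as the mean of IR and CR minus parental, was set side by side between the lines in a single fit. It was larger in Huh7 by 4.77 for EHD2 (95% interval 3.56 to 5.98), and by 1.25 for CAVIN1 (0.69 to 1.81). For CAVIN2 the Huh7 minus Hep3B value was 2.09 (1.13 to 3.05), as its level was lower by more in resistant Hep3B. These 3 members were called, against 29.4% of all genes. CAVIN3 was called too, at 1.00 (0.66 to 1.33), but it passed the filter only through 3 resistant Huh7 libraries and is not counted. CAV1 (−0.63, 95% interval −1.50 to 0.25) and CAV2 (−0.55, −1.31 to 0.20) were not, and for CAV1 the sign depended on the reference, with 1.10 when DMSO replaced parental libraries. The values are a description, because they rest on the differences known when the genes were chosen. Whether IR and CR differed more in Huh7 than in Hep3B, a separate question, gave no call by limma, edgeR or DESeq2 against 25.5% of all genes, with 1 member, EHD2, at an unadjusted limma p under 0.05 (1.79, adjusted p = 0.0582).

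By group mean, CAV1 ran from 262 ± 33.6 CPM (SD, n = 2) in Huh7-CR through 236 ± 10.0 in Huh7-IR, 84.6 ± 40.5 in Huh7 parental, 80.1 ± 31.4 in Hep3B-CR, 70.9 ± 20.0 in Hep3B-IR, 38.2 ± 7.94 in Huh7 DMSO and 24.0 ± 4.79 in Hep3B DMSO to 14.6 ± 0.307 CPM in Hep3B parental cells. The neighbours in this order whose libraries overlapped were Huh7-CR and Huh7-IR, Huh7 parental and Hep3B-CR, and Hep3B-CR and Hep3B-IR. For CAVIN1 the order was Huh7-CR (270 CPM), Huh7-IR (230), Hep3B-CR (128), Hep3B-IR (126), Hep3B DMSO (82.4), Hep3B parental (82.0), Huh7 parental (67.6) and Huh7 DMSO (48.4). The 4 resistant groups came first, and within each of the pairs Huh7-CR and Huh7-IR, Hep3B-CR and Hep3B-IR, and Hep3B DMSO and Hep3B parental the libraries overlapped.

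Genes with profiles most like CAV1 and CAVIN1 were ranked by the root mean square (RMS) difference between centred group means of log2(CPM + 1) over the 8 groups. For CAV1 the nearest of 15018 genes was MID2, a microtubule-associated ubiquitin ligase (RMS difference 0.37), followed by STK10, a serine/threonine kinase (0.40), IDS, a lysosomal sulfatase (0.40), the non-coding LINC01123 (0.41) and DPYSL2 (0.42). CAV2 ranked 12 by this measure (0.47), CAVIN1 660, CAVIN3 1685, EHD2 12180 and CAVIN2 14027. For CAVIN1 the nearest gene was RAB23, a small GTPase (0.18), followed by CLCF1, a cytokine (0.23), PARVA, a focal adhesion protein (0.25), OGFRL1 (0.25) and EZR, which links actin to the membrane (0.26). CAVIN3 ranked 634 for CAVIN1, CAV2 3110, CAV1 7042, EHD2 12580 and CAVIN2 13436.

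The nearest 2 tested protein-coding genes on each side of each member gave 20 genes that are not members. In Huh7, 7 of these were called higher and 1 lower in IR cells, against 31.1% and 17.8% of all genes, and 5 and 0 in CR cells, against 20.9% and 13.6%. In Hep3B the counts were 3 and 1 (IR), against 15.7% and 11.4%, and 5 and 0 (CR), against 20.0% and 12.3%. TES and MET, which flank the CAV2 and CAV1 pair, differed from parental cells by 0.48 and 0.82 (IR) and 0.54 and 0.40 (CR) in Huh7, and by 0.49 and 0.47 (IR) and 1.28 and 1.03 (CR) in Hep3B, of which MET in Huh7-IR and both in Hep3B-CR were called. STAT5A, near CAVIN1, was 1.79 higher in Huh7-IR and 0.93 in Huh7-CR, and NOP53, next to EHD2, was 1.75 higher in Huh7-IR, 1.22 in Huh7-CR and 1.10 in Hep3B-CR. DNAH7, whose start lies 3903391 bases from that of CAVIN2, was named after its values were seen. It was called higher in all 4 comparisons (2.33 and 2.20 in Huh7, 3.24 and 1.79 in Hep3B).

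The muscle forms stayed low. CAV3, the muscle caveolin, had 0 reads in all 16 libraries, which allows up to 3 reads per library, and CAVIN4, the muscle cavin, had group means of 2.69 to 5.96 CPM, with 1 call, in Huh7-IR (0.74 higher).

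Of 17 genes for the caveolar neck and accessory proteins, 15 were tested. They include the PACSIN and EHD families, which bend or cap the neck, the dynamins, which cut it, and kinases that phosphorylate caveolin or cavin. By limma against parental cells, 11 rose and 1 fell in Huh7-IR, 10 rose and 1 fell in Huh7-CR, and 6 rose and 0 fell in each resistant group of Hep3B. Over all genes, 31.1% (IR) and 20.9% (CR) were higher and 17.8% and 13.6% lower in Huh7, and 15.7% (IR) and 20.0% (CR) were higher and 11.4% and 12.3% lower in Hep3B. The counts of the cargo, flotillin, clathrin and cell type marker lists below stand against the same shares. With edgeR, 9 rose and 1 fell in each Huh7 comparison, 6 rose and 0 fell in Hep3B-IR, and 6 rose and 1 fell in Hep3B-CR. The list medians were 1.04, 0.90, 0.34 and 0.33, against 0.19, 0.07, 0.06 and 0.11 over all genes. This list and those below were chosen with earlier results of these data known, so their counts and medians are a description. The 5 genes that rose in all 4 comparisons were ROR1, DNM1, SRC, FLNA and PRKCA. The share of all genes called the same way in all 4 was not counted, for this list or those below. The IR and CR comparisons of a line share their parental libraries, so the 4 calls of a gene are not independent. The genes of this list that fell are not among those named below.

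ROR1, a receptor-like kinase that scaffolds cavin-1 and caveolin-1, went from 0.377 ± 0.00235 CPM (SD, n = 2) in parental Huh7 to 46.6 ± 10.1 CPM in IR and 50.8 ± 6.59 CPM in CR cells, and from 0.132 ± 0.0527 CPM in parental Hep3B to 9.03 ± 2.24 CPM in IR and 5.01 ± 3.38 CPM in CR cells. DNM1, the dynamin best known from neurons, rose from 0.179 to 19.7 CPM in Huh7-IR and 4.57 CPM in Huh7-CR, and from 0.473 to 7.22 CPM in Hep3B-IR and 6.07 CPM in Hep3B-CR. SRC, the kinase that phosphorylates caveolin-1 on tyrosine, rose by 1.92 and 1.503 (IR and CR) in Huh7 and by 1.37 and 1.35 in Hep3B. FLNA, the actin cross-linker that ties caveolae to stress fibres, rose by 1.18, 1.22, 0.93 and 1.37, and PRKCA by 0.88, 1.21, 1.32 and 1.47. PACSIN2, the F-BAR protein of the neck, differed by 0.05 in Huh7-IR and rose by 0.82 in Huh7-CR and, in Hep3B, by 1.93 (IR) and 1.71 (CR). DNM3 (1.81 and 0.99) and NOSTRIN (1.46 and 1.04) rose in IR and CR cells of Huh7 and were not called in Hep3B, where DNM3 differed by 0.34 and 0.27 and NOSTRIN by 0.67 and 0.07.

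**Figure D4:**
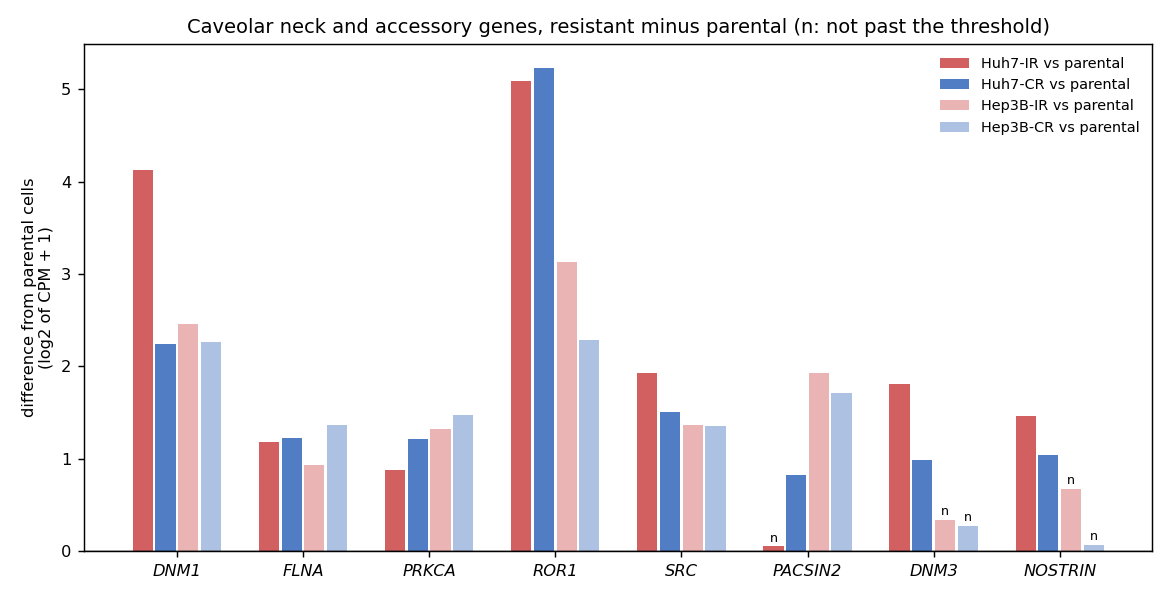
Differences of the named caveolar neck and accessory genes between resistant and parental cells on the log2(CPM + 1) scale, 1 bar per comparison, where n marks a bar not past the threshold. ROR1, DNM1, SRC, FLNA and PRKCA passed it in all 4 comparisons, with ROR1 reaching 5.23 in Huh7-CR. The genes of this list that were called lower are not shown.

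Receptors and enzymes that reside in caveolae did not share 1 direction. Of 6 tested cargo genes, 2 rose and 1 fell in each Huh7 comparison, 1 rose and 3 fell in Hep3B-IR, and 1 rose and 0 fell in Hep3B-CR (0 and 0 with edgeR). ATP2B4, a plasma membrane calcium pump, rose by 2.12 and 3.45 in IR and CR cells of Huh7, whereas in Hep3B it fell by 2.41 (IR) and rose by 0.70 (CR). CD36, a fatty acid receptor, rose by 2.83 and 3.14 in Huh7-IR and Huh7-CR and fell in Hep3B-IR (−0.81), and SCARB1, the HDL receptor, fell in all 3 of these groups (−2.09, −2.29 and −0.93).

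Other membrane domain and coat genes were counted for comparison. Of 5 flotillin and stomatin family genes, which mark flat membrane domains, FLOT1 rose (1.40 and 0.90) and STOM fell (−1.24 and −1.09) in Huh7-IR and Huh7-CR, and none was called in Hep3B; with edgeR, 1 fell in each Hep3B comparison. The largest further value was that of ERLIN1 in Hep3B-IR (−0.56, not called). Of 17 clathrin coat genes, 6 rose and 1 fell in Huh7-IR and 4 rose and 0 fell in each other comparison, with list medians of 0.48, 0.38, 0.31 and 0.51. CLTCL1, the second clathrin heavy chain, rose by 1.33, 1.30 and 1.37 in Huh7-IR, Huh7-CR and Hep3B-CR, and AP2A1, an adaptor subunit, by 1.32 and 1.06 in Huh7-IR and Huh7-CR, as did FCHO1 (1.81 and 1.79), which stayed at or below 3.02 CPM in every group mean.

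Caveolae are abundant in stromal cells, so markers of other cell types were read beside the members. Of 8 fibroblast markers 6 were tested, and 4 rose and 2 fell in each Huh7 comparison, while 1 rose and 1 fell in each Hep3B comparison; with edgeR, 2 rose in Hep3B-CR. Their summed level was 392 to 526 CPM in parental Huh7, 315 to 341 CPM in Huh7-IR and 505 to 789 CPM in Huh7-CR, and 63.1 to 70.3 CPM in parental Hep3B, 72.5 to 103 CPM in Hep3B-IR and 73.5 to 94.0 CPM in Hep3B-CR. DMSO cells had 412 to 580 CPM in Huh7 and 54.3 to 62.0 CPM in Hep3B. COL1A1 rose by 5.04, 4.21, 4.69 and 5.69 in the 4 comparisons, COL1A2 by 5.20 and 5.93 and COL3A1 by 2.97 and 4.91 in Huh7-IR and Huh7-CR, while PDGFRA fell in them (−5.46 and −3.11) and in Hep3B-CR (−2.33). PDGFRA is 1 of the 2 markers that fell in each Huh7 comparison, and the naming rule did not reach the other. LUM, also on this list, ranged from 10.8 to 476 CPM over all libraries, highest in Huh7 DMSO replicate 1. THY1 was below 0.06 CPM in every library. The part of these genes in the members' differences was not tested.

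Endothelial markers were near 0: 5 of 7 stayed below 1 CPM in all libraries, with sums of 1.08 to 1.61 CPM in parental and 0.236 to 0.497 CPM in resistant Huh7, and 0.380 to 0.565 CPM in parental and 0.540 to 1.07 CPM in resistant Hep3B, and PECAM1, the 1 tested, fell in Huh7-IR and Huh7-CR (−1.09 and −0.95). The endothelial sums in DMSO cells were 2.18 to 6.36 CPM in Huh7 and 0.416 to 0.658 CPM in Hep3B. Of 6 adipocyte markers 4 stayed below 1 CPM in all libraries, ADIPOQ among them, with sums of 0.629 to 1.27 CPM in parental and 0.912 to 8.62 CPM in resistant Huh7, and 18.1 to 22.3 CPM in parental and 37.2 to 58.1 CPM in resistant Hep3B. DMSO cells reached similar adipocyte sums without the drug, at 1.74 to 9.12 CPM in Huh7 and 37.4 to 71.3 CPM in Hep3B. CIDEC rose in Huh7-CR (2.18) as well as in Hep3B-IR (1.47), and PLIN4 by 1.36 in Hep3B-CR, where edgeR called none. PLIN4 averaged 52.6 CPM in Hep3B-CR and 53.5 CPM in Hep3B DMSO cells. Of 7 muscle markers 4 were tested and MYOD1 was at 0 in all libraries, with sums of 15.4 to 24.4 CPM in parental and 23.2 to 44.8 CPM in resistant Huh7, and 30.6 to 31.1 CPM in parental and 18.2 to 32.8 CPM in resistant Hep3B. The muscle sums in DMSO cells were 18.2 to 24.0 CPM in Huh7 and 45.7 to 64.3 CPM in Hep3B. CNN1, a smooth muscle calponin, rose by 2.89, 4.004, 1.36 and 1.10 in the 4 comparisons, ACTG2 by 1.63 in Huh7-CR, CKM fell in resistant Hep3B (−2.05 and −2.19), and ACTA1 was not called. With edgeR no muscle marker rose in Hep3B-CR. Of 6 leukocyte markers MS4A1 was at 0 in all libraries and CD3E at most 0.0530 CPM, with sums of 37.0 to 44.7 CPM in parental and 48.6 to 113 CPM in resistant Huh7, and 10.8 to 22.2 CPM in parental and 31.9 to 55.2 CPM in resistant Hep3B. The leukocyte sums in DMSO cells were 25.2 to 30.1 CPM in Huh7 and 49.9 to 68.6 CPM in Hep3B. CD68 rose by 3.62, 3.32, 2.19 and 1.78, LYZ, PTPRC and CD14 fell in Huh7-IR (−3.04, −0.93 and −1.21), and PTPRC fell in Huh7-CR (−0.69). The part of these genes in the members' differences was not tested.

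Among the 9 hepatocyte markers, 8 fell in IR and 7 in CR cells of Huh7, 4 in IR and 6 in CR cells of Hep3B, and 1 rose, in Hep3B-IR, where edgeR called 0 higher and 3 lower. AFP, AHSG and APOA1 fell in all 4 comparisons. The AFP differences were −10.22 (IR) and −8.19 (CR) in Huh7 and −1.74 (IR) and −5.03 (CR) in Hep3B. The marker that rose in Hep3B-IR is none of those named here. ALB fell in Huh7-IR (−4.85) and in both Hep3B comparisons (−2.06 for IR, −4.18 for CR), and was not called in Huh7-CR (−1.17). APOB and FGB fell in both Huh7 comparisons (APOB −8.54 and −4.42, FGB −5.60 and −4.13) and in Hep3B-CR (−3.69 and −4.45). Neither was called in Hep3B-IR (−2.41 and −2.18). How these moved with the caveolar genes was not tested.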

How the data were processed

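Huh7 and Hep3B parental, DMSO, IR and CR cells were profiled by RNA-seq, with 2 libraries for each of 8 groups. The authors aligned reads to hg19 with STAR, counted them over RefSeq exons and deposited CPM values (read counts scaled to a common library total) in a single table. Of 26258 gene identifiers, 26111 matched a symbol. All CPM values were whole multiples of 1 read within 0.05, so reads were recovered from them (46613302 to 76860251 per library). Libraries were poly(A)-selected per the labels; the strand setting of counting is not given in the sources used here.

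Groups came from the labels. One limma 3.58.1 fit (R 4.3.3) of 8 group means on log2(CPM + 1) used the 15019 genes that reached 1 CPM in 2 or more libraries. Calls needed a Benjamini-Hochberg adjusted p under 0.05 over all genes tested and an absolute log2 difference of 0.58. The alternatives were edgeR 4.0.16 and DESeq2 1.42.0 on recovered reads, TMM factors, quantile normalization, pseudocounts of 0.25 and 4, no filter, a replicate block, GC correction, DMSO as reference, the line alone and leaving out each library. The fit was tested on simulated data. Intervals are 95%; those of read ratios are exact conditional ones. CPM per kilobase used reference transcript lengths.

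The members and all gene lists were chosen with earlier results of these data known. Genes named from a list are those called in the same direction in all 4 comparisons with parental cells, then up to 3 more with the largest mean absolute log2 difference.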

Additional observations from a re-analysis of the deposited data

Results flagged for a closer look

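For 4 members the change from parental to resistant cells lay past the call threshold for a difference between Huh7 and Hep3B. This is a description, since the genes were chosen with these changes known. The Huh7 minus Hep3B difference was 4.77 for EHD2, 2.09 for CAVIN2, 1.25 for CAVIN1 and 1.00 for CAVIN3 on the log2(CPM + 1) scale. EHD2 and CAVIN1 were higher in resistant than in parental libraries of both lines, by more in Huh7, whereas CAVIN2 was lower by more in Hep3B. In Hep3B the EHD2 differences were not called, and the CAVIN1 calls were lost in 12 (IR) and 10 (CR) of 16 alternatives. CAVIN3 had 1 read in 8 Hep3B libraries and passed the filter only through 3 resistant Huh7 libraries, and its difference was not called with a pseudocount of 4 CPM (0.33) or after GC correction (0.75). The EHD2, CAVIN2 and CAVIN1 differences kept their call in all 23 alternatives each, over ranges of 2.68 to 5.75, 1.89 to 2.25 and 1.13 to 1.73.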

How the results depend on the processing

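Over 28 settings, 992 of 1074 recomputed member values stayed on their side of the threshold with no change of sign beyond 1 SE (44 of them, all uncalled, changed sign within it), 51 lost a call, 14 gained one and 17 changed sign. The cause of each was not tested. The number of members called between Huh7-IR and Huh7-CR was 0 with edgeR, a pseudocount of 0.25 CPM, no filter, the line alone and without any of the 4 libraries (0 to 0). Between Huh7 DMSO and parental cells it was 2 with DESeq2, the replicate block, GC correction and both together, 0 with a pseudocount of 4 CPM, no filter and the line alone, and 0 to 3 when a library was left out. For the line difference of IR minus CR it was 1 with quantile normalization, a pseudocount of 4 CPM, GC correction and the replicate block with GC correction. Signs changed for CAVIN3 between Huh7-IR and Huh7-CR with quantile normalization (−0.00690) and GC correction, also with the replicate block (−0.47), and without a library (−0.028 to 0.29). They changed for CAVIN1 between Hep3B-IR and Hep3B-CR with GC correction (0.20, also with the block) and without a library (−0.28 to 0.22), for CAV1 (−0.55 to 0.26) and CAV2 (−0.36 to 0.42) there without a library, and for CAVIN2 in Huh7 DMSO cells without a library (−1.27 to 0.18). With GC correction, alone or with the block, CAVIN3 came to −0.37 in Huh7 DMSO cells and −0.84 for the line difference of IR minus CR, and CAVIN1 to −0.22 in Hep3B DMSO cells. The CAV1 line difference came to 1.10 with DMSO libraries as reference. Replicate numbers were not taken to pair the samples: of 28 pairs of groups, the deviations of same-numbered libraries correlated over 0.1 in 13 and under −0.1 in 5 (−0.22 to 0.44). With the replicate block, the calls in Hep3B-IR against parental cells went from 4 to 3, as CAVIN1 was lost (0.59), and CAV1 in Huh7 DMSO cells was gained (−1.05, limma adjusted p = 0.0490). CAVIN3 had 1 read over the 8 Hep3B libraries.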
